A study of Mus musculus with 19 samples.

Results

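Livers of mice kept on a Western-type diet (WD) were compared with livers of mice kept on a normal diet (ND) when both had received AN1284 at 1 mg/kg/day. The comparison took the 4 WD and the 3 ND livers whose labels give this dose, 7 of the 19 livers of the series. No saline liver entered its fold changes. The mice were male C57BL/6, the growth protocol gives the substrain as C57BL/6JOlaHsd, and they were 4 weeks old when the work began. The diets lasted 4 months. The ND gave 13.9% of its energy as fat, 62.9% as carbohydrate and 23.1% as protein, and the WD, which the sample titles call HFD, gave 50.5%, 38% and 11.5% and also held 20% sucrose, 10% fructose, 1.25% cholesterol, trans-fat and little choline. The WD mice are labelled as a model of non-alcoholic steatohepatitis (NASH) and the ND mice as controls, and no group carried a transgene or a deleted gene. AN1284, an indoline derivative, was delivered for the last 8 weeks by implanted micro-osmotic pumps, so all 7 livers share the pump and the drug. The other 12 livers came from saline and 5 mg/kg/day mice, 3 per diet at each treatment. Their diet differences are used here to ask whether the diet difference under 1 mg/kg/day differed from theirs. These livers also entered the choice of genes tested and the estimate of spread behind each p-value below. Poly-A RNA of snap-frozen liver was sequenced, and values are the authors' normalised counts, which are read counts divided by a size factor for each library.

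A liver that takes up cholesterol from the diet normally lowers its own sterol synthesis, because the transcription factor SREBP2 is held back in the endoplasmic reticulum when membranes are rich in sterol. Oxidised sterols in turn activate the nuclear receptor LXR, which drives the transporters that move cholesterol out of hepatocytes and macrophages and also drives SREBP1c and fatty acid synthesis. Kupffer cells, the resident macrophages of the sinusoids, and monocytes that enter from blood are major sources of inflammatory transcripts in a fatty liver.

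Under AN1284 1 mg, 1912 of 14743 genes tested passed an adjusted p of 0.05 between the diets, which is 13% of them. Of these, 1187 were higher on the WD (8.05% of the genes tested) and 725 were lower (4.92%). The test was limma's moderated test on log2(normalised count + 1), and every log2 fold change below is WD against ND on that scale, which understates the change of genes with few counts. The median absolute log2 fold change was 0.228 over all genes tested and 0.904 over the passing genes. Among the passing genes 732 were higher and 136 were lower by more than 1 on the log2 scale. The values of the 4 WD and the 3 ND livers did not overlap for 3209 genes, 21.8% of those tested, and 1736 of these passed. The mice are separate animals, and the p-values rest on a spread within groups estimated from all livers of the series. They carry no statement beyond the livers of this series. With only the livers of this comparison fitted, 857 genes passed, 620 higher and 237 lower.

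Counted reads ran from 23905894 to 29742102 in the ND livers and from 25193552 to 32189581 in the WD livers. In the first principal component of the 500 most variable genes over all 19 livers, which carried 53.99% of the variance, the ND livers lay between -30.6 and -13.9 and the WD livers between -3.5 and 21.6. ND replicate 2 lay farthest from the WD livers and WD replicate 3 lay nearest to the ND livers. The comparison leaned on the first of these. Without ND replicate 2, 911 genes passed (6.18%), 657 higher and 254 lower, and 865 of them were among the 1912. Without WD replicate 3, 1707 passed, 1517 of them among the 1912. Without WD replicate 1, 453 genes were lower in place of 725. Where leaving out 1 liver ended the call of a gene, that liver is named beside the gene, or beside its difference from the saline or 5 mg diet effect. Sums of marker genes below are given with their range because their part in the results was not tested. All 14 hepatocyte markers were read in every liver, none of them passed, and their summed normalised count was 3192269 to 3935563 on the ND and 2912575 to 3172421 on the WD. In bulk tissue, fewer cells of a type cannot be told apart from less RNA per cell.

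**Figure D1:**
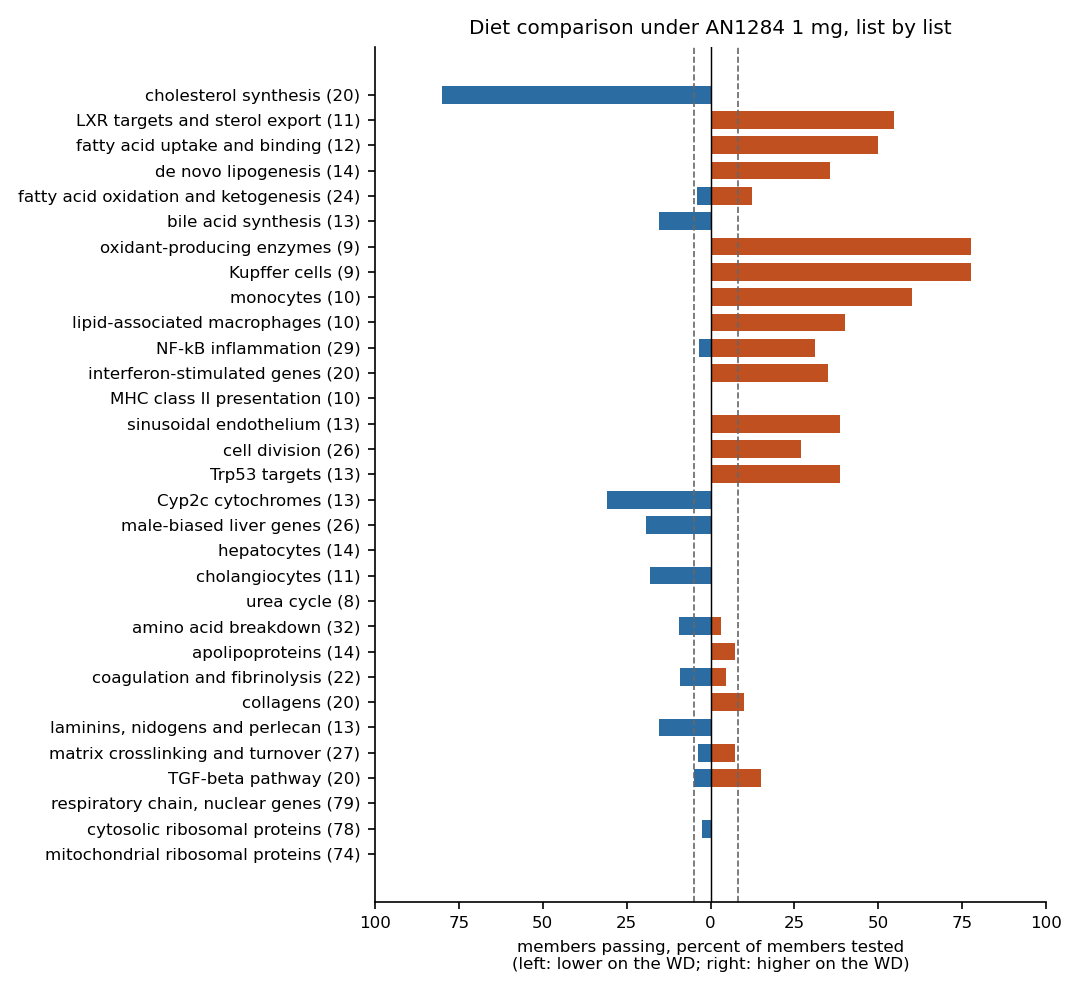
Share of the tested members of gene lists that passed between the diets under AN1284 1 mg, with members lower on the WD drawn to the left and members higher on the WD to the right, as a percent of the members tested (their number in parentheses). Dashed lines mark 4.92% and 8.05%, the shares of all genes tested; cholesterol synthesis reached farthest to the left, and the oxidant-producing enzymes and Kupffer cell markers farthest to the right.

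Transcripts of cholesterol synthesis were lower on the WD. Of 20 genes of the pathway 16 fell and none rose, with a median log2 fold change of -1.23 beside -0.015 over all genes tested, and 15 fell without ND replicate 2. For 18 of the 20 every WD liver lay below every ND liver. Idi1 (chr13:8885501-8892451, + strand), which makes the isoprenoid unit used to build squalene, had 7629, 4466 and 5152 normalised counts in the 3 ND livers and 1272, 1447, 1191 and 832 in the 4 WD livers. The means were 5749 ± 1664 (SD, n = 3) and 1186 ± 259 (SD, n = 4), and the log2 fold change was -2.27 ± 0.21 (SE, adjusted p = 1.21e-05). Sqle, the squalene epoxidase, had 3769, 2399 and 2776 normalised counts on the ND and 601, 1037, 916 and 526 on the WD. No WD liver reached the lowest ND liver for either gene, and Sqle fell with a log2 fold change of -1.98 ± 0.28 (SE, adjusted p = 0.000534).

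Enzymes before and after squalene fell. Cyp51, the lanosterol demethylase, read 7855, 4642 and 5964 on the ND and 1534, 1995, 1928 and 1522 on the WD, a log2 fold change of -1.80 ± 0.16 (SE, adjusted p = 3.86e-06). Msmo1, the sterol methyl oxidase, read 5335, 3963 and 4019 on the ND and 1140.3, 1266, 1689 and 1107 on the WD, a change of -1.78 ± 0.18 (SE, adjusted p = 1.31e-05). Fdft1, the squalene synthase, had the smallest adjusted p of the pathway, at a log2 fold change of -1.65 ± 0.14 (SE, adjusted p = 3.52e-06). The other members that fell were Nsdhl at -1.56, Fdps at -1.60, Mvd at -1.40, Mvk at -1.32, Pmvk at -1.29, Lss at -1.17, Tm7sf2 at -1.12, Hmgcs1 at -1.04, Dhcr7 at -0.98, Hsd17b7 at -0.74 and Ebp at -0.39 on the log2 scale. Ebp, the sterol isomerase, had the smallest of these changes. Ebp did not pass when any 1 of ND replicates 1, 2 and 3 and WD replicates 1 and 2 was left out (adjusted p 0.0699 to 0.121). Hsd17b7 did not pass without ND replicate 1, at -0.57 (adjusted p = 0.0631).

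Of the 20 members 4 did not pass, and for 2 of these the diets overlapped. Sc5d, the lathosterol desaturase, had 12932, 12411 and 12417 on the ND and 10982, 13135, 16152 and 9685 on the WD. Acat2, the cytosolic thiolase, stood at -0.39 ± 0.18 (SE, adjusted p = 0.169).

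**Figure D2:**
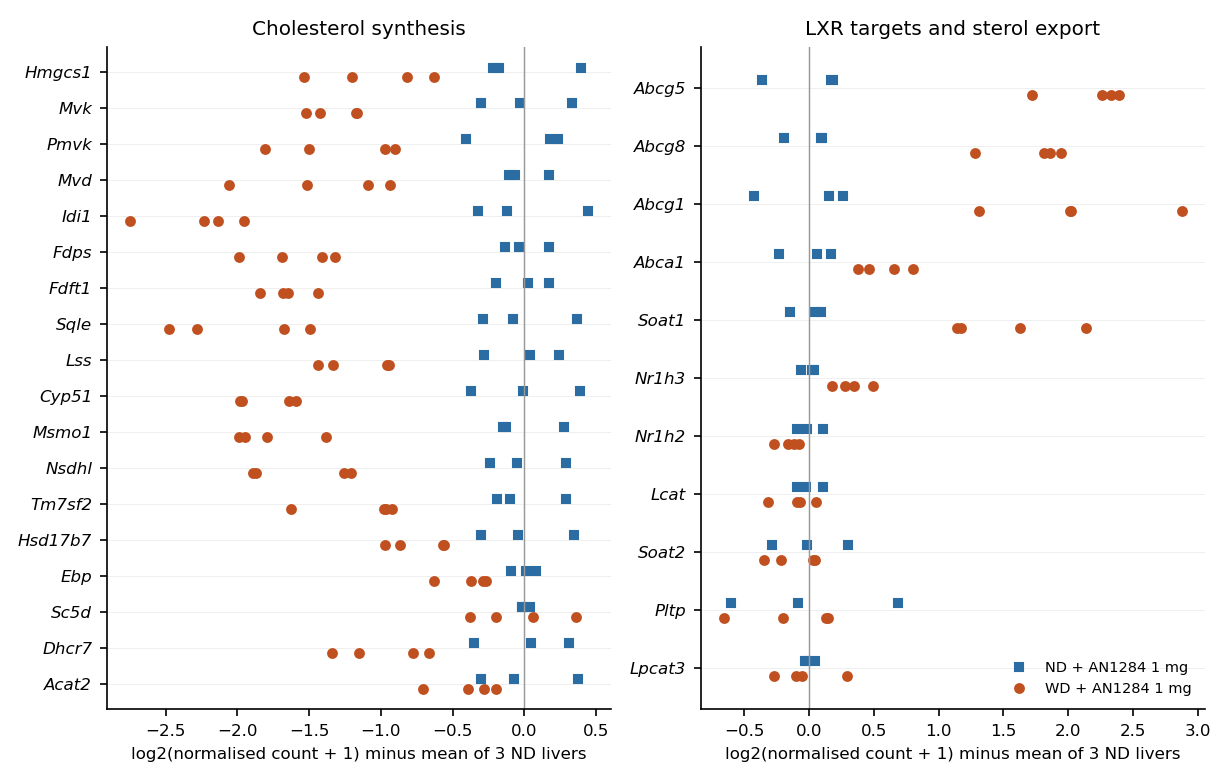
Every liver's log2(normalised count + 1) minus the mean of the 3 ND livers, for 18 cholesterol synthesis genes (left) and the 11 LXR and sterol export genes (right); blue squares are ND and orange circles are WD livers, all under AN1284 1 mg. The WD circles of Idi1 and Sqle sit farthest to the left and those of Abcg5 and Abcg1 farthest to the right, while Sc5d, Acat2, Lcat and Pltp overlap.

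Genes that control the pathway and lipoprotein uptake passed in part and in both directions. Srebf2, which encodes SREBP2, had 2328, 2325 and 2373 normalised counts on the ND and 1548, 1746, 1708 and 1576 on the WD, a log2 fold change of -0.51 ± 0.09 (SE, adjusted p = 0.00151). Insig1, which retains SREBP2 in the endoplasmic reticulum, read 7403, 7332 and 6052 on the ND and 5616, 7038, 8032 and 4325 on the WD (adjusted p = 0.507). Mylip, a ubiquitin ligase that LXR drives, was higher on the WD at 0.60 ± 0.19 (SE, adjusted p = 0.0416), and Scarb1, the HDL receptor, at 0.42 ± 0.10 (SE, adjusted p = 0.0111). Mylip did not pass when any 1 of ND replicates 1 and 2 and WD replicates 1, 2, 3 and 4 was left out (adjusted p 0.0537 to 0.136). Scarb1 did not pass without ND replicate 2, at 0.40 (adjusted p = 0.0531). Of the 12 genes of this list 2 rose and 2 fell, with a median of -0.22.

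Promoter windows of the sterol genes are printed because their transcripts fell together. Each runs from 250 bases before to 50 bases after the start of the gene in RefSeq on GRCm38.p6, 5′ to 3′ on the gene's strand, and capitals mark the sterol response element TCACNCCAC and the NF-Y box CCAAT, each on either strand (CCAAT reads ATTGG on the other). The windows of Hmgcs1 (chr13:119690101-119690400, + strand), Mvk (chr5:114444019-114444318, + strand), Idi1 (chr13:8885356-8885655, + strand) and Msmo1 (chr8:64733529-64733828, - strand) are shown as falling genes with different numbers of matches, and that of Abcg5 (chr17:84682962-84683261, - strand) as the transporter that rose most. Capitals were not set in the Abcg5 window.
Hmgcs1: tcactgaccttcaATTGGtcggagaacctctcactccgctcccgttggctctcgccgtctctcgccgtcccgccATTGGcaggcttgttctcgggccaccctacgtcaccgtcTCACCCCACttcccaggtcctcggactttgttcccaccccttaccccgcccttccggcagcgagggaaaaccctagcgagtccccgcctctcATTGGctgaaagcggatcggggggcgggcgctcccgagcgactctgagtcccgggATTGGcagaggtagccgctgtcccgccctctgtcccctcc
Mvk: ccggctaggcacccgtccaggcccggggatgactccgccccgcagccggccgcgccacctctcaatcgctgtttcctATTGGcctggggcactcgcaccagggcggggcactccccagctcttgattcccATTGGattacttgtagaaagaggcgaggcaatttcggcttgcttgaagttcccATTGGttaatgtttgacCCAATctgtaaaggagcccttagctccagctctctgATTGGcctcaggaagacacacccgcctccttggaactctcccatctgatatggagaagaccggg
Idi1: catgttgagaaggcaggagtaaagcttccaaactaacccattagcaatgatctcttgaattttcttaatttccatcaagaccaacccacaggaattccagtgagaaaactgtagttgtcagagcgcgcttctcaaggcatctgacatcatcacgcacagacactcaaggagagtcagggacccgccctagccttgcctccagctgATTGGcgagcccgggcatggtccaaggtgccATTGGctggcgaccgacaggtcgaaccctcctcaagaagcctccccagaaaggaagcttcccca
Msmo1: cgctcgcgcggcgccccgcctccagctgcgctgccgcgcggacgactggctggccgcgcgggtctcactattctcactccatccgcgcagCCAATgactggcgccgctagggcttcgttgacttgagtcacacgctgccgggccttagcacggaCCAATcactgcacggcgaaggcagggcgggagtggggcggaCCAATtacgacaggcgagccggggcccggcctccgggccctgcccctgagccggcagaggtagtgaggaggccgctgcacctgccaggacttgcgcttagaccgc
Abcg5: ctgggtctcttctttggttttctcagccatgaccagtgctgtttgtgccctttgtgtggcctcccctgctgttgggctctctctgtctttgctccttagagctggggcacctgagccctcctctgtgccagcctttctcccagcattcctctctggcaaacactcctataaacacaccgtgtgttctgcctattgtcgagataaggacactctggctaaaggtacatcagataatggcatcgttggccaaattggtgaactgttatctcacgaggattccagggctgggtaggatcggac

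Hmgcs1 held 1 match to the sterol response element and 4 CCAAT boxes, Mvk held 5 CCAAT boxes, Msmo1 3 and Idi1 2, and no match overlapped another. Matches were not marked in the Abcg5 window, which holds ATTGG in lower case, so no count is given for it. Of the 20 cholesterol synthesis genes 15 had a window, and 1 of these genes (6.67%) held TCACNCCAC, against 388 of all 27025 genes with a window (1.44%). A gene counted where any of its windows held the match. CCAAT stood in 14 of the 15 genes (93.3%), in 5 of 7 genes of the SREBP2 list (71.4%), in 6 of 9 of the LXR list (66.7%) and in 41.1% of all genes with a window. The CCAAT search was added after the windows had been seen. These counts describe letters in a window and carry no statement on binding.

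Sterol exporters were higher on the WD. Of the 11 genes of the LXR and export list 6 rose and none fell, with a median log2 fold change of 0.33, and 4 rose without ND replicate 2. Abcg5 (chr17:84658234-84683011, - strand) and Abcg8 (chr17:84676302-84700333, + strand) encode the partners of the transporter that secretes cholesterol into bile, lie head to head, and have promoter windows that share 209 bases. Abcg5 had 756, 1106 and 1095 normalised counts on the ND and 4897, 3201, 5105 and 4671 on the WD, and Abcg8 had 1646, 2011 and 2004 on the ND and 6833, 4562, 7243 and 6604 on the WD. Every WD liver stood well above every ND liver, with log2 fold changes of 2.18 ± 0.17 (SE, adjusted p = 1.08e-06) and 1.73 ± 0.17 (SE, adjusted p = 1.25e-05). Abcg5 had the smallest adjusted p of all genes named here.

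Members of the list that act in macrophages rose too. Abcg1, which passes cholesterol to HDL, read 160.3, 107 and 173 on the ND and 1065, 586, 358 and 582 on the WD, a log2 fold change of 2.06 ± 0.30 (SE, adjusted p = 0.000556). Soat1, which esterifies cholesterol in macrophages, read 119, 115 and 100.3 on the ND and 491, 346, 246 and 251 on the WD, a change of 1.52 ± 0.26 (SE, adjusted p = 0.00128). WD replicate 1 was the highest liver for both. Abca1 and the LXRα gene Nr1h3 rose less, by 0.57 ± 0.16 (SE, adjusted p = 0.027) and 0.33 ± 0.10 (SE, adjusted p = 0.0478). Abca1 did not pass when any 1 of ND replicates 2 and 3 and WD replicates 1 and 3 was left out (adjusted p 0.0544 to 0.0951). Nr1h3 did not pass when any 1 of ND replicates 1, 2 and 3 and WD replicates 1, 2 and 4 was left out (adjusted p 0.0617 to 0.166). Nr1h2, Lcat, Soat2, Pltp and Lpcat3 overlapped between the diets and did not pass. Soat2, which esterifies cholesterol in hepatocytes, had 718, 1079 and 864 normalised counts on the ND and 754, 895, 903 and 687 on the WD.

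The diet effect on the exporters was set against that in the saline livers. The saline log2 fold change was 0.71 ± 0.18 (SE, adjusted p = 0.00274) for Abcg5 and 0.47 ± 0.18 (SE, adjusted p = 0.035) for Abcg8, and the 1 mg change was larger by 1.47 ± 0.24 (SE, adjusted p = 0.000424) and 1.25 ± 0.25 (SE, adjusted p = 0.00197). Over all genes this difference of diet effects, 1 mg minus saline, passed for 3044 genes, 20.6% of those tested, 1385 positive and 1659 negative. It depended on scaling: with library totals in place of the size factors it passed for 5333 genes, 4832 of them negative. That scaling moved the median difference of all genes by -0.39, the saline diet effect by 0.43 and the 1 mg diet effect by only 0.03. With library totals the differences of Abcg5 and Abcg8 still passed in the same direction. In the cholesterol synthesis list the difference passed for 3 of 20 genes, positive for 2 of them, Tm7sf2 at 0.81 ± 0.24 (SE, adjusted p = 0.0217) and Ebp at 1.20 ± 0.18 (SE, adjusted p = 0.000166), and negative for 1. The difference of Tm7sf2 did not pass without saline ND replicate 1, at 0.76 (adjusted p = 0.052). With library totals 1 was positive and 8 were negative.

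Bile acid genes passed in part. Of 13 synthesis genes 2 fell and none rose, with a median of -0.02. The share that fell was above that of all genes tested, but it rests on 2 genes. Cyp7b1, the oxysterol hydroxylase of the acidic pathway, had 7002, 5612 and 4394 normalised counts on the ND and 1627, 2126, 2821 and 3143 on the WD and fell with a change of -1.24 ± 0.22 (SE, adjusted p = 0.00157). Cyp27a1, which starts that pathway, read 15200.3, 16297 and 15526 on the ND and 10658, 11080.5, 13814 and 12550.0 on the WD, a change of -0.39 ± 0.11 (SE, adjusted p = 0.0251). Cyp27a1 did not pass when any 1 of ND replicate 2 and WD replicates 1 and 2 was left out (adjusted p 0.0705 to 0.103). The rate-limiting enzyme of the classic pathway, Cyp7a1, overlapped with 2298, 1169 and 1146 on the ND and 2169, 584, 1674 and 2114 on the WD. Nr1h4, the bile acid receptor FXR, was lower on the WD in every liver at 3098, 2949 and 3080.2 on the ND and 2121, 2165, 2229 and 2464 on the WD, a change of -0.44 ± 0.09 (SE, adjusted p = 0.00358). Abcc4, an efflux pump of the basolateral membrane, was higher at 1.13 ± 0.33 (SE, adjusted p = 0.0297). Abcc4 did not pass when any 1 of ND replicates 1 and 2 and WD replicates 1, 2 and 4 was left out (adjusted p 0.0504 to 0.112).

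Fatty acid uptake transcripts rose. Of 12 uptake and binding genes 6 were higher on the WD and none was lower, with a median of 0.51, and 5 were higher without ND replicate 2. Cd36 (chr5:17781690-17888801, - strand), the fatty acid translocase, had 975, 1216 and 1354 normalised counts on the ND and 5431, 3814, 5096 and 4200.2 on the WD, with means of 1181 ± 191 (SD, n = 3) and 4635 ± 755 (SD, n = 4) and a log2 fold change of 1.97 ± 0.23 (SE, adjusted p = 6.71e-05). Lpl, the lipoprotein lipase, read 1025, 469.6 and 720.4 on the ND and 5013, 1919, 2899 and 3817 on the WD, a change of 2.19 ± 0.33 (SE, adjusted p = 0.000756). All WD livers were above all ND livers for both genes, and ND replicate 2 was the lowest liver for Lpl but not for Cd36. Vldlr rose by 1.69 ± 0.29 (SE, adjusted p = 0.0011) from 40.4, 30.4 and 32.5 to 143, 141, 115 and 68.4, and Fabp7 and Fabp2, intracellular fatty acid carriers, by 1.72 and 1.35. Fabp4, the carrier of adipocytes and macrophages, overlapped between the diets and passed at 0.89 ± 0.25 (SE, adjusted p = 0.0251). Fabp4 did not pass when any 1 of ND replicates 1 and 2 and WD replicates 1 and 4 was left out (adjusted p 0.0609 to 0.134).

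Fatty acid synthesis was higher in part. Of 14 genes 5 rose and none fell, with a median of 0.52, and 3 rose without ND replicate 2. Srebf1, which encodes SREBP1, had 2852, 4904 and 3978 normalised counts on the ND and 9134, 8469, 12095 and 8214 on the WD, a log2 fold change of 1.29 ± 0.23 (SE, adjusted p = 0.00136). Scd1, the stearoyl-CoA desaturase and among the most abundant liver transcripts, read 423182, 387460.1 and 424751 on the ND and 816367, 861896, 1125998 and 891267 on the WD, a change of 1.16 ± 0.21 (SE, adjusted p = 0.00157). Neither gene overlapped between the diets. Scd2 rose by 1.60 ± 0.24 (SE, adjusted p = 0.000664) and Acaca, the acetyl-CoA carboxylase that commits carbon to fatty acids, by 0.70 ± 0.18 (SE, adjusted p = 0.016). Acaca did not pass when any 1 of ND replicates 1 and 2 and WD replicate 2 was left out (adjusted p 0.0504 to 0.0732). Pnpla3, a lipid droplet protein under SREBP1c, rose by 2.03 ± 0.64 (SE, adjusted p = 0.0466). Pnpla3 did not pass when any 1 of ND replicates 1 and 2 and WD replicates 2, 3 and 4 was left out (adjusted p 0.0523 to 0.158). Fasn, the synthase, had 12404, 17970.1 and 15736 normalised counts on the ND and 18433, 32016, 34963 and 19207 on the WD, did not overlap, and did not pass, at 0.72 ± 0.33 (SE, adjusted p = 0.167). WD replicates 2 and 3 carried the high values of Fasn.

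Genes of elongation, storage and oxidation of fatty acids passed in part. Their shares passing were not tested against that of all genes. Elovl5 rose by 0.89 ± 0.19 (SE, adjusted p = 0.00497) and Fads2 by 0.56 ± 0.18 (SE, adjusted p = 0.042), both enzymes of polyunsaturated fatty acids, and Elovl3 fell with a change of -0.59 ± 0.18 (SE, adjusted p = 0.0413). Fads2 did not pass when any 1 of ND replicates 1, 2 and 3 and WD replicates 2, 3 and 4 was left out (adjusted p 0.0604 to 0.148). Elovl3 did not pass when any 1 of ND replicates 1, 2 and 3 and WD replicates 1, 3 and 4 was left out (adjusted p 0.0544 to 0.128). Mogat1, a monoacylglycerol acyltransferase, read 15.9, 52.0 and 41.8 on the ND and 80.3, 61.2, 117 and 128 on the WD, a change of 1.47 ± 0.32 (SE, adjusted p = 0.00497), and was the 1 gene of 12 in the triglyceride list to pass. Cidea, which fuses lipid droplets, read 4.89, 76.5 and 72.4 on the ND and 266, 124, 429 and 683 on the WD and rose by 3.29 ± 0.90 (SE, adjusted p = 0.0274), and Hsd17b11, a droplet protein, rose by 0.67 ± 0.13 (SE, adjusted p = 0.00212). These were the 2 of 16 droplet genes that passed. Cidea did not pass when any 1 of ND replicate 1 and WD replicates 1, 3 and 4 was left out (adjusted p 0.0544 to 0.11). Of 24 oxidation and ketogenesis genes 3 rose and 1 fell, namely Ehhadh of the peroxisome at 1.10, Bdh1 at 0.44 and Hadhb at 0.42, and Pdk4 at -1.02. Bdh1 did not pass when any 1 of ND replicates 1 and 2 and WD replicates 2, 3 and 4 was left out (adjusted p 0.0508 to 0.0906). Hadhb did not pass when any 1 of ND replicates 1 and 2 and WD replicates 1, 2, 3 and 4 was left out (adjusted p 0.0741 to 0.205).

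Kupffer cell markers were higher on the WD. Of 9 markers 7 rose and none fell, with a median log2 fold change of 1.48, and 6 rose without ND replicate 2. Their summed normalised count was 4903.5 to 9509.8 on the ND and 19320 to 28354 on the WD, with ND replicate 2 the lowest. Clec4f (chr6:83644542-83656187, - strand), a lectin found on Kupffer cells, had 1894, 1424 and 2506 normalised counts on the ND and 5198, 5133, 5098 and 4421 on the WD, a change of 1.39 ± 0.24 (SE, adjusted p = 0.00128). Cd5l, which macrophages secrete, read 2240.3, 1108 and 2489 on the ND and 8983, 7383, 6936 and 6226 on the WD, a change of 2.00 ± 0.30 (SE, adjusted p = 0.000756). In both genes the lowest WD liver was above the highest ND liver. Adgre1, which encodes F4/80, rose by 1.94 ± 0.33 (SE, adjusted p = 0.00139), Csf1r, the receptor of the macrophage growth factor, by 1.48 ± 0.21 (SE, adjusted p = 0.000398), and Vsig4, Folr2 and Timd4 by 1.41, 1.58 and 1.70. Marco and Cd163 did not pass, at 1.38 ± 0.66 (SE, adjusted p = 0.188) and 0.79 ± 0.40 (SE, adjusted p = 0.207). Timd4 did not pass without ND replicate 2, at 1.34 (adjusted p = 0.0862).

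Monocyte markers were higher as well. Of 10 markers 6 rose and none fell, with a median of 1.56, 5 of them without ND replicate 2, and their sum was 965.6 to 2539.9 on the ND and 3956.8 to 6926.5 on the WD. Ms4a6c read 137, 42.1 and 101.2 on the ND and 792, 442, 208 and 438 on the WD, a change of 2.32 ± 0.39 (SE, adjusted p = 0.00118). Fcgr1, a high-affinity IgG receptor, rose by 1.65 ± 0.25 (SE, adjusted p = 0.000664), Itgam, which encodes CD11b, by 2.70 ± 0.65 (SE, adjusted p = 0.0102), Lyz2 by 1.32, Plac8 by 1.48 and Chil3 by 3.32. Chil3 did not pass without ND replicate 2, at 2.46 (adjusted p = 0.0529). Ccr2, the receptor that draws monocytes to CCL2, overlapped with 75.9, 33.3 and 32.5 on the ND and 169, 122, 58.5 and 44.9 on the WD, and Cx3cr1, Ly6c2 and S100a4 did not pass either. Ccl2 itself read 39.1, 26.5 and 61.3 on the ND and 80.3, 80.7, 84.2 and 46.0 on the WD (adjusted p = 0.252).

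The 10 largest rises were taken among passing genes with a mean of at least 100 normalised counts and no overlap between the diets. Several of them are transcripts of leukocytes, and which cells carried them was not tested. Fcrl5, an Fc receptor-like protein, read 1.22, 0 and 1.86 in the ND livers and read 951, 361, 12.3 and 374 in the WD livers. Cd300e, a receptor of monocytes, had 45.3, 28.4 and 35.3 normalised counts on the ND and 1476, 675, 142 and 630.1 on the WD. Fcgr4, an IgG receptor of monocytes and macrophages, had 137, 93.1 and 184 on the ND and 3563, 1877, 458 and 2158 on the WD. In all 3 genes WD replicate 3 was the lowest WD liver. That it lay above the ND livers was required by the choice. Their log2 fold changes were 6.78 ± 1.33 (SE, adjusted p = 0.00375), 3.90 ± 0.66 (SE, adjusted p = 0.00142) and 3.58 ± 0.53 (SE, adjusted p = 0.000873). Without WD replicate 3 they were 8.09 (adjusted p = 0.000155), 4.55 (adjusted p = 6.64e-05) and 4.18 (adjusted p = 6.75e-06).

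WD replicate 3 was the lowest WD liver for further genes. Ifit1bl1 read 12.2, 1.96 and 4.64 on the ND and 399, 155, 30.8 and 191 on the WD, Gcnt1, a glycosyltransferase of leukocytes, 11.01, 13.7 and 16.7 on the ND and 434, 170.0, 25.7 and 144 on the WD, and Grap2, a leukocyte adaptor, 35.5, 13.7 and 25.99 on the ND and 641, 295, 35.9 and 295 on the WD. In Grap2 WD replicate 3 was level with ND replicate 1. The lack of overlap in Ifit1bl1, Gcnt1 and Grap2 was part of their choice. Itgax, which encodes CD11c and is not among the 10, overlapped at 74.6, 25.5 and 66.8 on the ND and 1364, 614, 63.6 and 568 on the WD. The 4 log2 fold changes were 4.53, 3.15, 3.13 and 3.03, all passing. Grap2 did not pass without ND replicate 2, at 2.77 (adjusted p = 0.0618). Itgax did not pass without ND replicate 2, at 2.55 (adjusted p = 0.0851). The 8 neutrophil markers with a value summed to 118.6 to 143.2 on the ND and 299.7 to 1967.4 on the WD, and 2 of the 7 tested rose, Csf3r by 1.83 and S100a8. S100a8, a calcium-binding protein of neutrophils, rose by 3.16 ± 0.93 (SE, adjusted p = 0.035) with WD replicate 2 highest among 169, 575, 58.5 and 90.8. S100a8 did not pass when any 1 of ND replicates 1, 2 and 3 and WD replicates 1 and 2 was left out (adjusted p 0.0639 to 0.105). Rad51b, a recombination gene, read 37.9, 18.6 and 79.8 on the ND and 495, 756, 299.7 and 426 on the WD and rose by 3.57 ± 0.36 (SE, adjusted p = 2.00e-05). Orm3, an acute phase orosomucoid, rose by 3.12 ± 0.71 (SE, adjusted p = 0.0103). Cidea, given above, completed the 10.

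**Figure D3:**
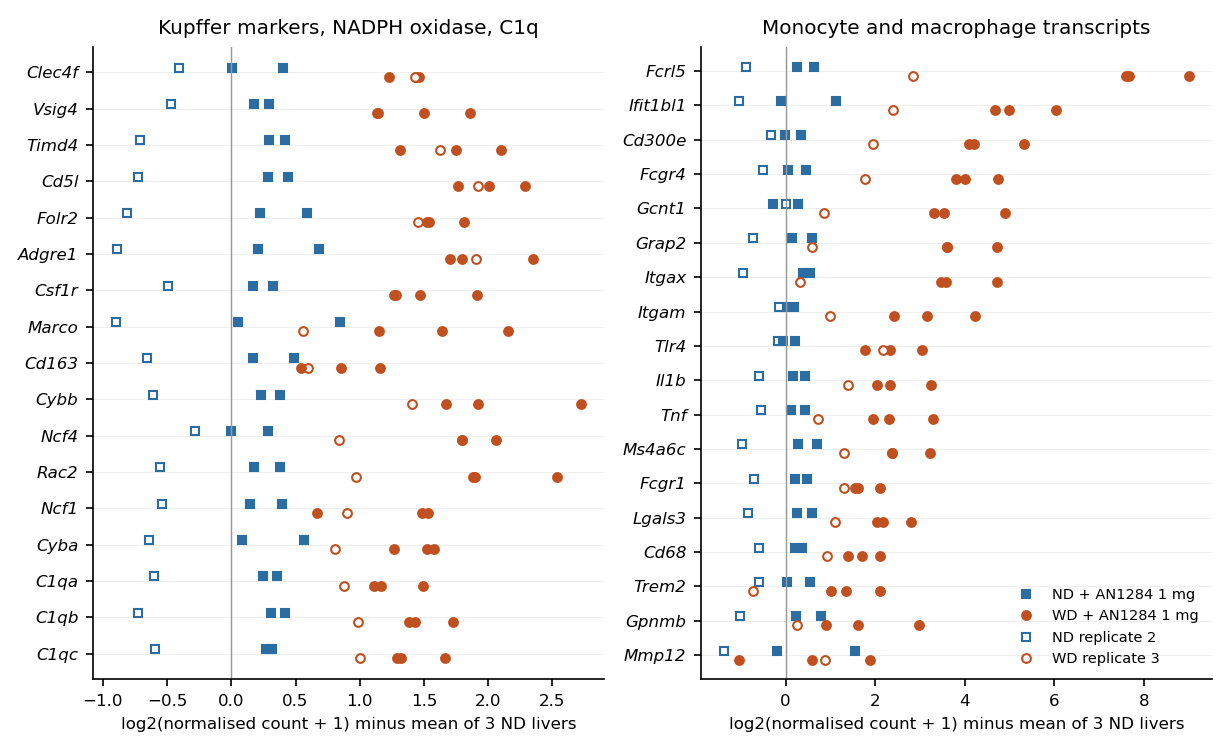
Every liver's log2(normalised count + 1) minus the mean of the 3 ND livers for Kupffer cell markers, NADPH oxidase and C1q genes (left) and for monocyte, macrophage and other leukocyte transcripts (right). Open symbols mark ND replicate 2 and WD replicate 3. ND replicate 2 is the lowest ND liver for nearly all genes on the left, and WD replicate 3 is the lowest WD liver for Fcrl5, Cd300e, Fcgr4 and Itgax on the right.

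Lipid-associated macrophage markers were higher in part. Of 10 markers 4 rose, Lpl, Cd68 at 1.54, Lgals3, the galectin-3 gene, at 2.03 and Itgax, with a list median of 1.19. Gpnmb and Trem2, which define these cells, did not pass. Gpnmb read 19.6, 4.90 and 13 on the ND and 92.9, 21.2, 13.3 and 35.9 on the WD, and Trem2, the lipid-sensing receptor, 23.2, 14.7 and 33.4 on the ND and 100.7, 46.7, 13.3 and 59.4 on the WD. Mmp12, the macrophage elastase, read 14.7, 5.88 and 51.1 on the ND and 64.5, 7.65, 31.8 and 25.8 on the WD. All 3 overlapped between the diets. In the saline livers all 10 markers rose, and the 1 mg diet effect minus that of saline was -6.24 ± 1.10 (SE, adjusted p = 0.00108) for Mmp12, -4.80 ± 1.03 (SE, adjusted p = 0.00411) for Gpnmb, -3.64 ± 0.72 (SE, adjusted p = 0.00208) for Trem2 and -2.42 ± 0.53 (SE, adjusted p = 0.00447) for Cd63. The same test passed for 2 monocyte markers, Ccr2 at -2.18 ± 0.63 (SE, adjusted p = 0.0221) and Cx3cr1 at -2.37 ± 0.81 (SE, adjusted p = 0.0455), and for 1 Kupffer marker, Cd163, at 1.86 ± 0.58 (SE, adjusted p = 0.0319) with the opposite sign. The difference of Ccr2 did not pass without ND replicate 1, at -1.79 (adjusted p = 0.0608). The difference of Cd163 did not pass when any 1 of ND replicate 2, WD replicate 2, saline ND replicate 1 and saline WD replicates 2 and 3 was left out (adjusted p 0.0583 to 0.0869). The difference of Cx3cr1 did not pass when any 1 of 16 of the 19 livers was left out (adjusted p 0.0531 to 0.105), the others being ND replicate 2, WD replicate 1 and saline ND replicate 1. With library totals 6 of the lipid-associated markers, 3 of the monocyte markers and none of the Kupffer markers passed this test.

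Genes of oxidant production were higher on the WD. Of 9 genes 7 rose, with a median of 1.29, and 5 rose without ND replicate 2. Cybb, the catalytic subunit of the phagocyte NADPH oxidase, had 548, 276 and 494 normalised counts on the ND and 2786, 1599, 1122 and 1348 on the WD, a log2 fold change of 1.93 ± 0.28 (SE, adjusted p = 0.0006). Its cytosolic partners rose by 1.62 ± 0.28 (SE, adjusted p = 0.00121) for Ncf4 and 1.15 ± 0.24 (SE, adjusted p = 0.00439) for Ncf1, and Rac2 by 1.82 and Cyba by 1.29. Nox4, which is not limited to phagocytes, rose by 0.50 ± 0.14 (SE, adjusted p = 0.0268) with overlapping livers. Nox4 did not pass when any 1 of ND replicates 2 and 3 and WD replicates 1 and 2 was left out (adjusted p 0.0688 to 0.105). Cyba did not pass without ND replicate 2, at 0.97 (adjusted p = 0.0925). Nos2, the inducible nitric oxide synthase, was low in all 7 livers, at 17.1, 3.92 and 1.86 on the ND and 4.72, 2.55, 1.03 and 2.24 on the WD. The Kupffer and monocyte sums given above moved with these genes, and their part in the result was not tested.

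Complement moved in opposite directions by gene. The 3 genes of C1q, which macrophages make, rose: C1qa by 1.16, C1qb by 1.38 and C1qc by 1.32. C8b and C6, which hepatocytes make for the membrane attack complex, fell: C8b read 13611, 9805 and 9387 on the ND and 5326, 4987, 5882 and 5888 on the WD, a change of -0.97 ± 0.17 (SE, adjusted p = 0.00139), and C6 13770.0, 11327 and 11818 on the ND and 6701, 7536, 6456 and 8149 on the WD, a change of -0.77 ± 0.16 (SE, adjusted p = 0.00348). No other of the 22 complement genes passed. C1qa did not pass without ND replicate 2, at 0.86 (adjusted p = 0.0504).

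Inflammatory transcripts under NF-kB were higher in part. Of 29 genes 9 rose and 1 fell, with a median of 0.38; without ND replicate 2, 4 rose and 1 fell. Tlr4, the endotoxin receptor, had 25.7, 19.6 and 21.4 normalised counts on the ND and 190.4, 116, 103 and 77.4 on the WD, a change of 2.33 ± 0.30 (SE, adjusted p = 0.000213). Il1b read 77.1, 45.1 and 92.8 on the ND and 661, 285, 183 and 349 on the WD, a change of 2.25 ± 0.45 (SE, adjusted p = 0.00358), and Vcam1, an adhesion molecule, rose by 1.42 ± 0.26 (SE, adjusted p = 0.00195). None of these 3 overlapped. Tnf was low, at 4.89, 1.96 and 3.71 on the ND and 41.7, 20.4, 6.16 and 15.7 on the WD, and rose by 2.06 ± 0.57 (SE, adjusted p = 0.0227). Tnf did not pass when any 1 of ND replicate 2 and WD replicates 1 and 2 was left out (adjusted p 0.0546 to 0.108). The inhibitors Nfkbia and Tnfaip3 rose by 0.61 and 0.93, and Il1a and Il1rn, the receptor antagonist, by 1.10 and 1.22. Tnfaip3 did not pass without ND replicate 2, at 0.86 (adjusted p = 0.0592). Il1a did not pass without ND replicate 2, at 1.01 (adjusted p = 0.0538). Il1rn did not pass without ND replicate 2, at 0.89 (adjusted p = 0.088). Il10, an anti-inflammatory cytokine, read 1.22, 2.94 and 1.86 on the ND and 37.8, 12.8, 7.18 and 7.85 on the WD and passed at 2.26 ± 0.70 (SE, adjusted p = 0.0387). Il10 did not pass when any 1 of ND replicates 1, 2 and 3 and WD replicates 1 and 2 was left out (adjusted p 0.0702 to 0.125). Tgfb1, a cytokine of matrix deposition, rose by 1.03 ± 0.25 (SE, adjusted p = 0.0111). Tgfb1 did not pass without ND replicate 2, at 0.91 (adjusted p = 0.0659).

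Interferon and antigen presentation genes gave different counts. Of 20 interferon-stimulated genes 7 rose and none fell, with a median of 0.53, but 1 rose without ND replicate 2. Ifit2 read 94.2, 49.0 and 134 on the ND and 317, 194, 183 and 137 on the WD, a change of 1.21 ± 0.28 (SE, adjusted p = 0.00924), and Rsad2, the gene still passing without ND replicate 2, rose by 0.94 ± 0.24 (SE, adjusted p = 0.0135). Ifit2 did not pass without ND replicate 2, at 0.81 (adjusted p = 0.071). None of the 10 genes of MHC class II presentation passed. Cd74, the invariant chain, had 5395, 2144 and 5140.2 normalised counts on the ND and 5520.3, 4086, 4835 and 4121 on the WD. ND replicates 1 and 3 lay within the WD range and ND replicate 2 below it. H2-Aa overlapped in the same way, at 1545, 666 and 1763 on the ND and 2037, 1310.5, 1736 and 1366 on the WD. In saline livers 9 of the 10 rose, and the difference of diet effects passed for 6, all negative, among them H2-Aa at -1.65 ± 0.48 (SE, adjusted p = 0.023), H2-Ab1 at -1.69 ± 0.45 (SE, adjusted p = 0.015), Cd74 at -1.66 ± 0.46 (SE, adjusted p = 0.0179) and the class II activator Ciita at -2.09 ± 0.43 (SE, adjusted p = 0.00279). The difference of H2-Aa did not pass when any 1 of ND replicates 1 and 3 and saline WD replicate 2 was left out (adjusted p 0.0556 to 0.0631).

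Endothelial, cell division and iron genes were higher in part. Of 13 sinusoidal endothelial markers 5 rose, 4 of them without ND replicate 2, and their sum was 6134.9 to 7178.8 on the ND and 8774.8 to 10246 on the WD. Pecam1 read 423, 383 and 383 on the ND and 1127, 864, 625 and 739 on the WD, a change of 1.05 ± 0.18 (SE, adjusted p = 0.00121), Cdh5 rose by 0.93 and Stab2, a scavenger receptor, by 0.71. Among 26 cell division genes 7 rose, but 1 without ND replicate 2, namely Ccnd1, cyclin D1, at 451, 363 and 628 on the ND and 1464, 1127, 983 and 1126 on the WD, a change of 1.31 ± 0.17 (SE, adjusted p = 0.00026). Mki67, a marker of dividing cells, overlapped between the diets with 152, 57.8 and 98.4 on the ND and 567, 289.8, 111 and 205 on the WD and passed at 1.37 ± 0.41 (SE, adjusted p = 0.0354). Mki67 did not pass when any 1 of ND replicates 2 and 3 and WD replicates 1 and 2 was left out (adjusted p 0.0658 to 0.187). Of 13 targets of Trp53, the DNA damage factor, 5 rose and none fell, among them Btg2 at 0.99, Phlda3 at 1.28 and Ccng1 at 0.55, and 3 rose without ND replicate 2. Among 13 iron genes 4 rose and none fell, 2 of them without ND replicate 2. Tfrc, the transferrin receptor, read 188, 354 and 276 on the ND and 560.3, 616, 478 and 555 on the WD and rose by 1.06 ± 0.17 (SE, adjusted p = 0.000938). Id1, a target of BMP signalling, rose by 1.31. Of 16 lysosome genes 4 rose and none fell, 2 without ND replicate 2, among them Ctss, the cathepsin of antigen-presenting cells, at 1.56.

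The 10 largest falls, chosen as the rises were, held Idi1, Sqle and several enzymes and secreted proteins of hepatocytes. Selenbp2 (chr3:94693556-94704413, + strand), a selenium-binding protein, had 8217, 8526 and 5936 normalised counts on the ND and 614, 149, 934 and 1279 on the WD. The log2 fold change was -3.70 ± 0.60 (SE, adjusted p = 0.00142), the largest fall of the 10, and it passed without ND replicate 2 at -3.60 (adjusted p = 0.0117). Serpina1e, an alpha-1-antitrypsin paralog, read 294448, 254426 and 222084 on the ND and 45033, 61359.9, 53871 and 70122 on the WD, a change of -2.17 ± 0.34 (SE, adjusted p = 0.000906). Ugt2b38, a glucuronosyltransferase, read 438, 569.6 and 298 on the ND and 88.1, 73.9, 68.8 and 117 on the WD, a change of -2.29 ± 0.26 (SE, adjusted p = 4.65e-05). None of the 3 overlapped between the diets, which the choice of these genes required. Cyp2c40 fell with a change of -2.66 ± 0.59 (SE, adjusted p = 0.00706), the predicted gene Gm3839 with -2.62 ± 0.35 (SE, adjusted p = 0.00026), Adgrf1, an adhesion receptor, with -2.48 ± 0.47 (SE, adjusted p = 0.00224), Enho, which encodes the peptide adropin, with -2.21 ± 0.39 (SE, adjusted p = 0.00149) and Cib3 with -2.33 ± 0.68 (SE, adjusted p = 0.0342). Cib3 did not pass when any 1 of ND replicates 2 and 3 and WD replicates 1, 2 and 3 was left out (adjusted p 0.0543 to 0.132). Cyp2c, Serpina1, Ugt2b and Mup genes have near-identical copies, so the split of reads among copies is uncertain.

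Of 13 Cyp2c cytochromes 4 fell and none rose, with a median of -0.60, and 5 fell without ND replicate 2. With all livers they were Cyp2c40, Cyp2c69 at -2.81, Cyp2c23 at -0.70 and Cyp2c67 at -0.74. Cyp2c69 did not pass without ND replicate 1, at -2.24 (adjusted p = 0.0619). Cyp2c67 did not pass without ND replicate 1, at -0.48 (adjusted p = 0.0928). Of 26 male-biased liver genes 5 fell and none rose, with a median of -0.39, namely Selenbp2, Cyp7b1, Elovl3, Serpina1e and Cyp2d9 at -0.58. Cyp2d9 did not pass when any 1 of ND replicates 2 and 3 and WD replicates 1 and 2 was left out (adjusted p 0.0727 to 0.136). Elovl3 did not pass when any 1 of ND replicates 1, 2 and 3 and WD replicates 1, 3 and 4 was left out (adjusted p 0.0544 to 0.128). Hsd3b5, a steroid dehydrogenase of male mouse liver, had 4646, 3091 and 4966 normalised counts on the ND and 844, 918, 2112 and 2604 on the WD without passing, at -1.53 ± 0.58 (SE, adjusted p = 0.0972). Cyp1a2, a target of the aryl hydrocarbon receptor, read 19028, 18655 and 16463 on the ND and 8655, 7412, 9106 and 8087 on the WD and fell with a change of -1.12 ± 0.12 (SE, adjusted p = 3.48e-05). Other targets of this receptor went the other way, Ahrr at 1.81 and Tiparp at 0.73, while Ahr and Cyp1a1 overlapped with adjusted p values of 0.636 and 0.743. Tiparp did not pass when any 1 of ND replicates 2 and 3 was left out (adjusted p 0.0564 to 0.058).

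Respiratory chain and ribosomal genes differed little between the diets under AN1284 1 mg. None of 8 urea cycle genes, none of 79 nuclear respiratory chain genes, none of 74 mitochondrial ribosomal genes and 2 of 78 cytosolic ribosomal genes passed, with medians of -0.19, -0.02, -0.04 and -0.09. The 8 urea cycle genes are too few to tell none passing from the share of all genes tested. Of 32 amino acid breakdown genes 1 rose and 3 fell, a share passing near that of all genes tested. Cps1, the first enzyme of the urea cycle, had 70535, 77299 and 67684 normalised counts on the ND and 72304, 54552, 78747 and 52795 on the WD, and Alb, albumin, had 1675795, 1620497 and 2368179 on the ND and 1645171, 1819539.9, 1449399 and 1451062 on the WD. Both overlapped. Plg, plasminogen, had 99044, 84959.6 and 83450.3 on the ND and 69316, 74180.1, 82414 and 73089 on the WD, and did not pass at -0.25 ± 0.11 (SE, adjusted p = 0.146).

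Single members of other metabolic lists passed. Apoa4, an apolipoprotein that responds to liver fat, had 4860.0, 6018 and 9071 normalised counts on the ND and 16324, 18273, 28446 and 35451 on the WD, a change of 1.87 ± 0.26 (SE, adjusted p = 0.000445), and was the 1 of 14 apolipoproteins to pass. Gnmt, the glycine methyltransferase, read 32528, 47121 and 40317 on the ND and 19576, 18903, 33162 and 27223 on the WD and fell with a change of -0.72 ± 0.20 (SE, adjusted p = 0.0212). Nr1i3, the xenobiotic receptor CAR, read 2385, 6721 and 3130.3 on the ND and 2074, 2068, 2292 and 2088 on the WD and fell with -0.79, and none of the Cyp2b and Cyp3a genes listed with it passed. Gnmt did not pass when any 1 of ND replicate 2 and WD replicates 1 and 2 was left out (adjusted p 0.0669 to 0.122). Nr1i3 did not pass when any 1 of ND replicate 2 and WD replicates 1, 2 and 4 was left out (adjusted p 0.0621 to 0.208).

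In saline livers the urea cycle, amino acid and respiratory chain genes differed between the diets. The saline diet effect passed for 7820 genes, 53.0% of those tested, and 4136 of them were higher and 3684 lower on the WD. Of 8 urea cycle genes 8 fell, of 32 amino acid breakdown genes 31, of 79 respiratory chain genes 62 and of 14 hepatocyte markers 13, and none of these lists held a rise except the hepatocyte markers with 1. With library totals 7581 genes were higher and 1350 lower, and the falls in these lists were 6, 28, 26 and 12 and the rises 0, 1, 5 and 1. The difference of diet effects was positive, meaning a smaller fall under 1 mg, for 7, 27, 37 and 13 of them and negative for none. With library totals it was positive for 6, 23, 4 and 9 and negative for 0, 1, 2 and 1, so the respiratory chain counts depended on the scaling. Cps1 differed by 1.84 ± 0.27 (SE, adjusted p = 0.000175) and Alb by 0.91 ± 0.24 (SE, adjusted p = 0.0123); Alb did not pass with library totals. For cytosolic ribosomal genes the count was 9 positive, and 0 in either direction with library totals. Of the 26 male-biased genes 21 differed positively, 20 with library totals, and the most positive differences of the rule were Hsd3b5 at 6.73 ± 0.84 (SE, adjusted p = 0.000117), Mup7 at 5.96, Mup16 at 5.66, Mup17 at 5.18, Mup11 at 5.12, Mup12 at 5.10, Serpina1e at 4.91 and Nnmt at 4.52. Nnmt, which methylates nicotinamide, had 3008, 2849 and 1953 normalised counts on the ND and 1882, 2949.9, 3354 and 3989 on the WD under 1 mg and 3962, 4472 and 2404 on the ND and 293, 203 and 88.3 on the WD under saline.

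Matrix genes passed in part under 1 mg, and their shares passing were not tested against that of all genes. Of 20 collagens 2 rose, Col4a1 of the basement membrane at 0.51 ± 0.15 (SE, adjusted p = 0.0307) and Col14a1 at 0.70 ± 0.23 (SE, adjusted p = 0.048), with a list median of -0.07. Col4a1 did not pass when any 1 of ND replicates 1 and 2 and WD replicates 1 and 4 was left out (adjusted p 0.0627 to 0.182). Col14a1 did not pass when any 1 of ND replicates 1 and 2 and WD replicates 1, 2, 3 and 4 was left out (adjusted p 0.0544 to 0.228). Col1a1, the main fibrillar collagen, had 696, 218 and 633 normalised counts on the ND and 756, 299, 247 and 192 on the WD, and Col3a1 958, 439 and 1424 on the ND and 1950.0, 921, 994 and 588 on the WD. ND replicate 2 was the lowest ND liver and WD replicate 1 the highest WD liver for both, and the groups overlapped. Under saline 15 of the 20 rose. The difference of diet effects was negative for 14 and positive for none, or 17 and none with library totals, among them Col1a1 at -3.93 ± 0.71 (SE, adjusted p = 0.00151), Col1a2 at -3.02 ± 0.56 (SE, adjusted p = 0.00172) and Col3a1 at -2.98 ± 0.58 (SE, adjusted p = 0.00251). Of 13 laminin, nidogen and perlecan genes 2 fell under 1 mg, Lamc3 at -1.14 ± 0.32 (SE, adjusted p = 0.0246) and Lama3 at -0.90 ± 0.19 (SE, adjusted p = 0.00403). Lamc3 did not pass when any 1 of ND replicates 1 and 3 and WD replicates 2 and 4 was left out (adjusted p 0.0531 to 0.0904). Of 27 genes of matrix crosslinking and turnover 2 rose, the neutrophil collagenase Mmp8 by 2.89 and the gelatinase Mmp9 by 1.70, and 1 fell. Of 20 genes of the TGF-beta list 3 rose and 1 fell. Smad3, which carries its signal, fell with -0.50 while the inhibitor Smad7 rose by 0.70. Mmp8 did not pass when any 1 of ND replicates 1 and 2 and WD replicates 1, 2 and 4 was left out (adjusted p 0.0518 to 0.109). Mmp9 did not pass when any 1 of ND replicates 1 and 3 and WD replicate 2 was left out (adjusted p 0.058 to 0.0661). Smad3 did not pass when any 1 of ND replicate 2 and WD replicates 1, 3 and 4 was left out (adjusted p 0.0591 to 0.293). Smad7 did not pass when any 1 of ND replicates 2 and 3 was left out (adjusted p 0.0668 to 0.105). Stellate cell markers gave 2 rises of 12, Rgs5 at 1.26 and Hhip at 1.07, and their sum was 4583.5 to 8998.3 on the ND and 6933.2 to 8426.7 on the WD. Hhip did not pass when any 1 of ND replicates 1 and 2 and WD replicate 3 was left out (adjusted p 0.0521 to 0.0844).

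Bile duct markers were lower on the WD in part. All 11 tested had a log2 fold change below 0, with a median of -0.60, and 2 fell. Sox9 had 595, 541 and 392 normalised counts on the ND and 221, 320.4, 224 and 195 on the WD, a change of -1.08 ± 0.23 (SE, adjusted p = 0.00403). Its livers did not overlap between the diets, and it passed without ND replicate 2 as well. Spp1, the osteopontin gene, overlapped at 2682, 1098 and 2250.3 on the ND and 1507, 1122, 1058 and 875 on the WD. The 12 bile duct markers with a value summed to 2793.9 to 4299.6 on the ND and 1602.2 to 2403.3 on the WD. Under saline 7 of the 11 rose, and the difference of diet effects was negative for 8, or 11 with library totals, among them Spp1 at -3.00 ± 0.51 (SE, adjusted p = 0.000784), Cftr at -3.08 ± 0.93 (SE, adjusted p = 0.0248) and Sox9 at -1.53 ± 0.33 (SE, adjusted p = 0.00362). The difference of Cftr did not pass when any 1 of ND replicate 3, saline ND replicate 2 and saline WD replicate 3 was left out (adjusted p 0.0505 to 0.0734).

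**Figure D4:**
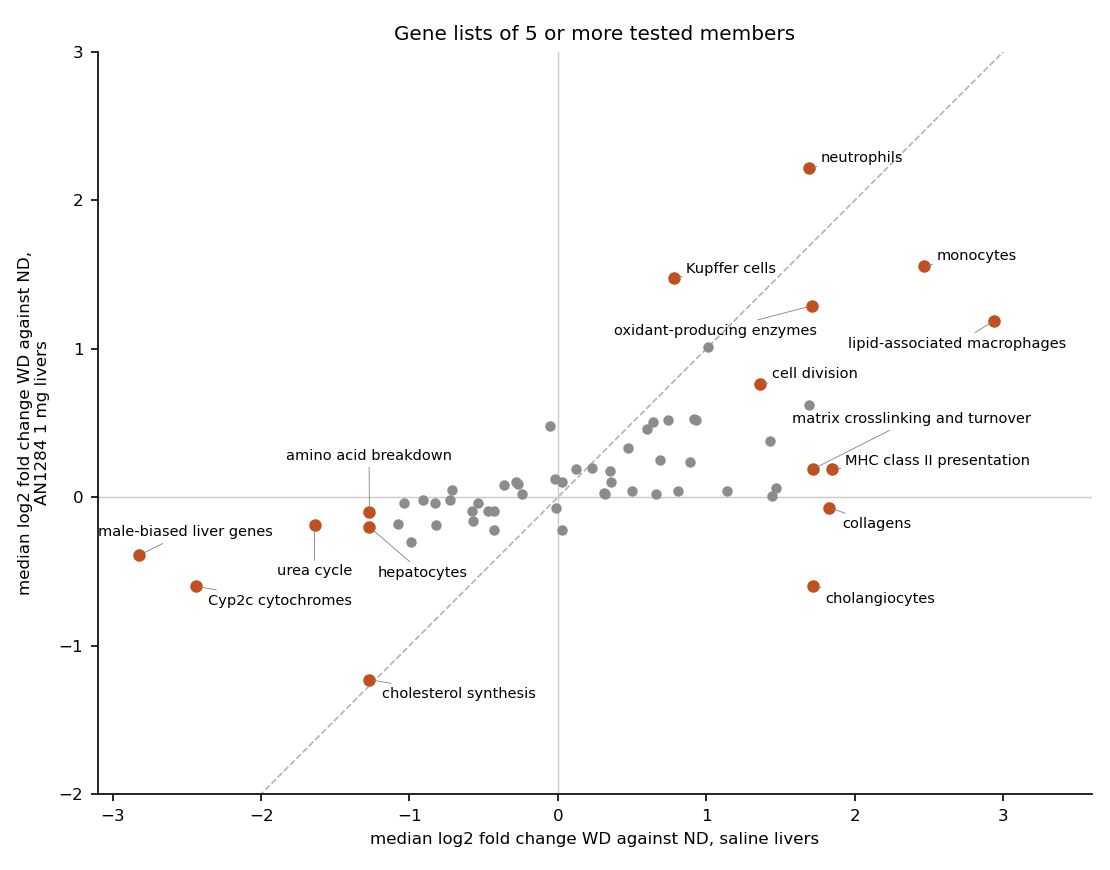
Median log2 fold change WD against ND of each gene list with 5 or more tested members, in saline livers (horizontal axis) and AN1284 1 mg livers (vertical axis); the dashed line marks equal medians and orange points are labelled. Cholesterol synthesis lies near that line at -1.27 and -1.23, urea cycle and hepatocyte markers lie near 0 on the vertical axis only, and cholangiocyte markers have medians of opposite sign at 1.72 and -0.60.

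Across genes, 1461 passed in both the 1 mg and the saline diet comparison. The fold changes of these comparisons share no liver, but their p-values share an estimate of the spread. They made up 76.4% of the 1 mg genes and 18.7% of the saline genes. The direction was the same for 1384 and opposite for 77, with 26 rising and 51 falling on the WD under 1 mg. With library totals it was the same for 1262 and opposite for 90, and 34 genes were opposite under both scalings. A further 451 genes passed under 1 mg but not under saline, and the difference of diet effects passed for 120 of those. Of 6359 genes that passed under saline but not under 1 mg, the difference passed for 2560.

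Pdk4 (chr6:5483351-5496309, - strand), the kinase that turns off pyruvate dehydrogenase in fasting, was among the 77. Under 1 mg it had 426, 526 and 664 normalised counts on the ND and 203, 350.1, 273 and 235 on the WD, a change of -1.02 ± 0.20 (SE, adjusted p = 0.00255). Under saline it had 406, 392 and 566 on the ND and 1565, 1277 and 1923 on the WD, a rise of 1.80 ± 0.21 (SE, adjusted p = 2.83e-06), and the diet effects differed by -2.83 ± 0.29 (SE, adjusted p = 1.75e-05). No WD liver reached the lowest ND liver under 1 mg, and no ND liver reached the lowest WD liver under saline. Sds, the serine dehydratase, went the other way: 2913, 3468 and 2537 on the ND and 3940.1, 4928, 5417 and 7166 on the WD under 1 mg, 5431, 5687 and 5746 on the ND and 938, 1109.7 and 427 on the WD under saline, with diet effects of 0.83 and -2.88 and a difference of 3.71 ± 0.38 (SE, adjusted p = 1.75e-05). Sds did not pass when any 1 of ND replicates 1, 2 and 3 and WD replicates 2, 3 and 4 was left out (adjusted p 0.0704 to 0.125).

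The other genes chosen for opposite diet effects follow, and their difference in sign is part of that choice. Lower on the WD under 1 mg and higher under saline were Sytl5 at 39.1, 18.6 and 38.1 on the ND and 10.2, 11.9, 2.05 and 3.36 on the WD under 1 mg, Wnk2 at 34.3, 34.3 and 32.5 on the ND and 15.7, 10.2, 15.4 and 10.1 on the WD and Tmem171 at 31.8, 36.3 and 39.0 on the ND and 11.02, 16.1, 13.3 and 17.9 on the WD. Their 1 mg changes were -2.24, -1.35 and -1.25 and their saline changes 1.96, 1.55 and 1.83. C2cd4c, Chrnb1, a subunit of the muscle acetylcholine receptor, and Cdh11, a cadherin, did the same with 1 mg changes of -1.58, -1.54 and -1.74. Sytl5 did not pass when any 1 of ND replicates 1 and 3 and WD replicate 3 was left out (adjusted p 0.0531 to 0.0693). Tmem171 did not pass without ND replicate 2, at -1.24 (adjusted p = 0.0583). C2cd4c did not pass when any 1 of ND replicates 1, 2 and 3 and WD replicates 1 and 4 was left out (adjusted p 0.0505 to 0.104). Chrnb1 did not pass when any 1 of ND replicates 1 and 3 and WD replicates 2, 3 and 4 was left out (adjusted p 0.0799 to 0.137). Cdh11 did not pass when any 1 of ND replicates 2 and 3 and WD replicates 2 and 3 was left out (adjusted p 0.0627 to 0.0747). Higher under 1 mg and lower under saline were Fcna, a Kupffer cell lectin of complement, at 690.1, 584 and 1094 on the ND and 1627, 1894, 1709 and 1796 on the WD, Sult1d1, a sulfotransferase, at 1265, 1462 and 1072 on the ND and 2802, 1831, 2948 and 1872 on the WD, Sult2a7, 1110002J07Rik and the clock gene Per1 at 264, 461 and 336 on the ND and 487, 701, 828 and 917 on the WD. The 1 mg changes were 1.20, 0.88, 0.93, 1.00 and 1.05, and the saline changes -0.86, -0.99, -1.04, -0.83 and -0.72. Fcna did not pass without ND replicate 2, at 1.01 (adjusted p = 0.0674). Sult2a7 did not pass when any 1 of ND replicate 3 and WD replicates 2 and 3 was left out (adjusted p 0.0528 to 0.0936). 1110002J07Rik did not pass when any 1 of ND replicates 1, 2 and 3 and WD replicates 1, 2 and 3 was left out (adjusted p 0.0552 to 0.115). Rnf43 and Tbx3, Wnt targets of pericentral hepatocytes, also passed in both with opposite sign, at -0.54 and -0.76 under 1 mg and 1.50 and 1.39 under saline. Rnf43 did not pass when any 1 of ND replicate 2 and WD replicates 1, 2 and 4 was left out (adjusted p 0.0602 to 0.244). Tbx3 did not pass when any 1 of ND replicates 1, 2 and 3 and WD replicates 1 and 4 was left out (adjusted p 0.0664 to 0.14). With library totals Chrnb1 and Rnf43 did not pass under 1 mg, and Fcna, Sult2a7, 1110002J07Rik and Per1 did not pass under saline.

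The most negative differences of diet effects concerned genes that rose strongly under saline. Ly6d read 97.9, 38.2 and 73.3 on the ND and 503, 365, 374 and 359 on the WD under 1 mg, a rise of 2.59 ± 0.36 (SE, adjusted p = 0.000469), against 21.7, 19.8 and 58.2 on the ND and 4691, 3447 and 4253 on the WD under saline, and the diet effects differed by -4.49 ± 0.53 (SE, adjusted p = 3.84e-05). Nrg1, a growth factor of the EGF family, overlapped under 1 mg at 24.5, 15.7 and 46.4 on the ND and 44.1, 30.6, 21.6 and 29.1 on the WD and differed by -4.76 ± 0.50 (SE, adjusted p = 1.75e-05). Cidea, Gprc5b and Ubd differed by -4.06, -4.33 and -4.04; of these 3 only Cidea passed between the diets under 1 mg. The difference of Cidea did not pass when any 1 of 13 of the 19 livers was left out (adjusted p 0.0525 to 0.1), the others being ND replicate 1, WD replicate 4, saline ND replicate 3 and 5 mg WD replicates 1, 2 and 3.

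The test for a difference between the diet effects under 1 mg and 5 mg passed for few genes. A gene that did not pass it need not have the same diet effect at both doses. Under 5 mg/kg/day the diet effect passed for 453 genes (3.07%), with 3 livers on each diet. Their difference, which was taken over separate livers, passed for 3 genes (0.0203%), while 1092 had an unadjusted p under 0.05. Pdk4 had 110.3, 163 and 141 normalised counts on the ND and 418, 485 and 402 on the WD under 5 mg, so that its ND livers were lower and its WD livers higher than under 1 mg, and the diet effects differed by -2.68 ± 0.29 (SE, adjusted p = 0.00036). Rgs1, a regulator of G protein signalling in leukocytes, read 18.4, 30.4 and 35.3 on the ND and 249, 156, 141 and 188 on the WD under 1 mg and 79.2, 90.1 and 118 on the ND and 68.6, 137 and 86.2 on the WD under 5 mg, a difference of 2.70 ± 0.44 (SE, adjusted p = 0.039). The difference of Rgs1 from 5 mg did not pass when any 1 of 12 of the 19 livers was left out (adjusted p 0.0529 to 0.215), the others being WD replicates 2 and 3, saline ND replicates 1 and 2, saline WD replicates 1 and 2 and 5 mg WD replicate 2. It did not pass either with library totals, CPM, voom, the replicate block or a fit without trend and robust weights (adjusted p 0.0718 to 0.182). For Rgs1 the WD livers under 5 mg overlapped its ND livers, and under 1 mg they did not. Among the sterol genes the 5 mg diet effect was -2.11 ± 0.23 (SE, adjusted p = 6.11e-05) for Idi1 and 1.67 ± 0.18 (SE, adjusted p = 5.94e-05) for Abcg5, and 11 of the 20 cholesterol synthesis genes fell. None of the Kupffer cell markers, monocyte markers or oxidant-producing genes passed under 5 mg. Their medians were 0.43, 0.69 and 0.52 under 5 mg and 1.48, 1.56 and 1.29 under 1 mg.

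**Figure D5:**
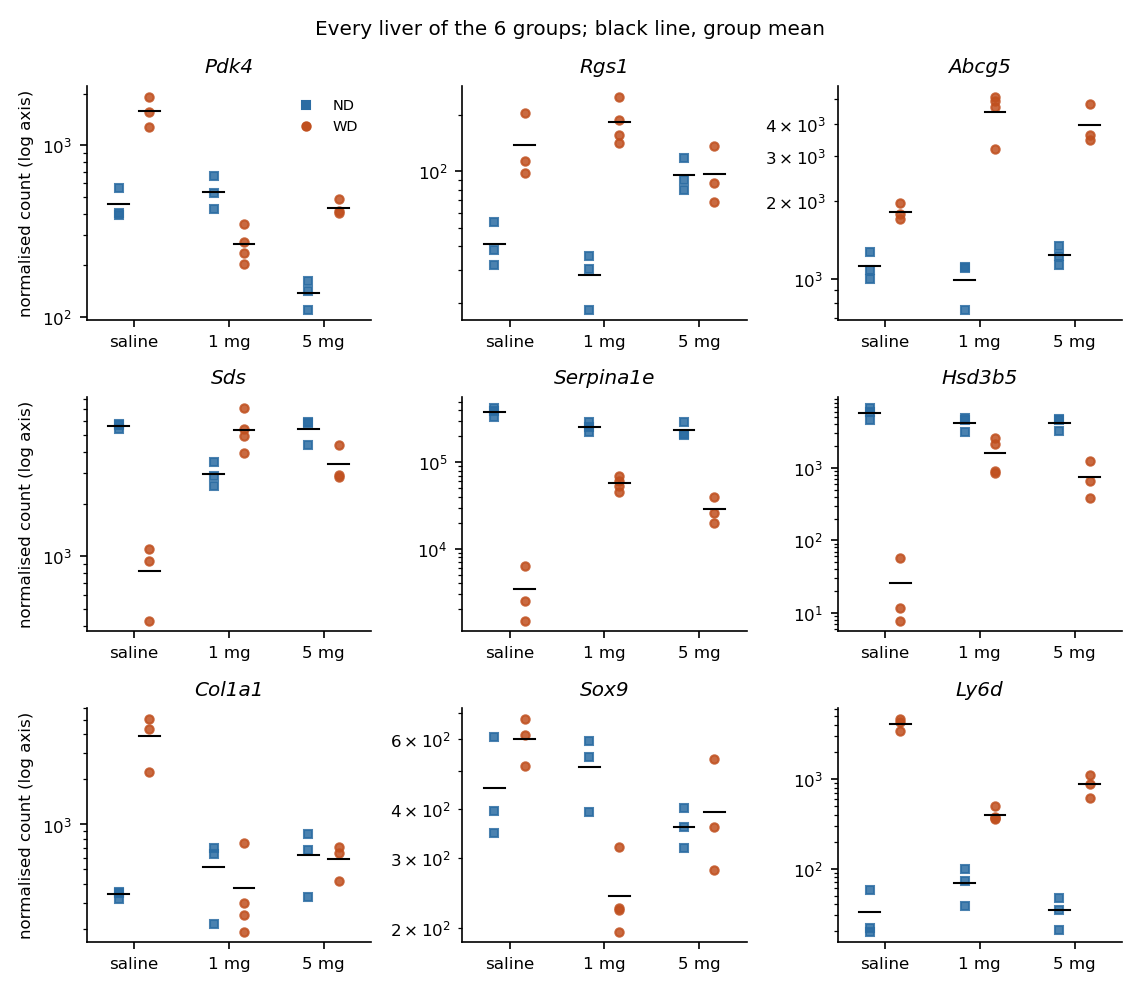
Normalised counts of 9 genes in every liver of the 6 groups on a log axis, with ND as blue squares, WD as orange circles and group means as black lines, for saline, 1 mg and 5 mg/kg/day. Pdk4 and Sds change direction between saline and 1 mg, Abcg5 rises in all 3 treatments, and Serpina1e and Hsd3b5 fall farthest under saline.

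Rxra, the partner of LXR and FXR, had 13350.3, 12808 and 13144 normalised counts on the ND and 12501, 12901, 13347 and 14291 on the WD, a difference of 0.02 ± 0.09 (SE, adjusted p = 0.929).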

How the data were processed

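Livers were sequenced from poly-A RNA with a stranded kit. Per the submitters' notes, reads were trimmed with cutadapt 1.18, aligned to GRCm38 with TopHat2 2.1.1 and counted per gene with HTSeq 0.6.0. The strand setting of the counting is not given in the sources used here. The deposited table holds raw counts and normalised counts that the authors made with DESeq2 1.22.1 size factors (0.8173 to 1.2708 in the 7 livers), beside their own fold changes and p-values, which were not used. Of 54838 genes 20433 had a normalised count, and in 6252 genes no count is given. A count model was not run, and voom on the raw counts was tried as an alternative.

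Here log2(normalised count + 1) was fitted with limma 3.58.1 in R 4.3.3 (trend and robust, 6 groups, 19 livers) for 14743 genes with at least 10 normalised counts in 3 or more livers, with Benjamini-Hochberg adjustment, and the code was tested on simulated data. Library sizes and scaling, pseudocounts of 0.5 and 5, filters, voom, a replicate block, fits to fewer livers and leaving out each liver were tried as alternatives. The named genes are the 10 largest rises and falls without overlap, up to 5 members of each list and all members of lists of up to 20 where described, the 8 most positive and negative differences from saline, up to 6 genes in each direction with opposite diet effects and the transcripts the study names; Il6 was not among the tested genes, and some genes that the rule names are not reported here. Members and the 63 gene lists were chosen with earlier results of these data known. Promoter sequences are RefSeq's on GRCm38.p6.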

Additional observations from a re-analysis of the deposited data

Results flagged for a closer look

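The difference of diet effects, AN1284 1 mg minus saline, passed for 88 of the 202 genes named here, and each value below is that difference on the log2 scale, negative where the diet effect was lower under 1 mg. All livers of both diets enter each value, and the saline effect moved with the scaling as given above.

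Among lipid and sterol genes it was negative for Srebf2 at -0.43, Mylip at -0.84, Scd2 at -1.43, Acaca at -1.06, Cd36 at -1.15, Vldlr at -1.47, Fabp4 at -2.06, Mogat1 at -1.86, Cidea at -4.06, Abcc4 at -1.90, Apoa4 at -1.91 and Pdk4 at -2.83. It was positive for Tm7sf2 at 0.81, Ebp at 1.20, Abcg5 at 1.47, Abcg8 at 1.25, Nr1h3 at 0.67, Lcat at 0.96, Cyp7b1 at 1.48, Cyp27a1 at 0.64 and Elovl3 at 1.86. The difference of Srebf2 did not pass when any 1 of ND replicates 1 and 3, WD replicate 4, saline ND replicates 1 and 3 and saline WD replicates 1, 2 and 3 was left out (adjusted p 0.0502 to 0.0813). The difference of Mylip did not pass when any 1 of ND replicates 2 and 3, WD replicates 2, 3 and 4, saline ND replicates 1 and 3 and saline WD replicate 1 was left out (adjusted p 0.0558 to 0.116). The difference of Cd36 did not pass when any 1 of ND replicate 3 and saline WD replicate 3 was left out (adjusted p 0.0529 to 0.0577). The difference of Vldlr did not pass without saline ND replicate 1, at -1.19 (adjusted p = 0.0585).

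Among leukocyte and inflammatory genes it was negative for Gpnmb at -4.80, Trem2 at -3.64, Cd63 at -2.42, Mmp12 at -6.24, Ccr2 at -2.18, Cx3cr1 at -2.37, Nos2 at -4.55, Il1rn at -2.56, Tnfaip3 at -1.49, H2-Aa at -1.65, H2-Ab1 at -1.69, Cd74 at -1.66, Ciita at -2.09 and Ubd at -4.04. It was positive for Cd163 at 1.86, Fcna at 2.06, Nox4 at 1.13, Nfkbia at 0.87 and C8b at 2.23. With library totals the differences of Cd163 and Nfkbia did not pass.

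Among matrix, bile duct and growth genes it was negative for Col1a1 at -3.93, Col1a2 at -3.02, Col3a1 at -2.98, Col4a1 at -1.68, Lamc3 at -2.75, Smad3 at -1.14, Spp1 at -3.00, Cftr at -3.08, Sox9 at -1.53, Ccnd1 at -1.24, Nrg1 at -4.76 and Cdh11 at -3.03. It was positive for Lama3 at 1.27, Hhip at 1.43, Btg2 at 0.71 and Tfrc at 0.91. With library totals the differences of Hhip and Btg2 did not pass. The difference of Hhip did not pass when any 1 of ND replicate 1, saline ND replicate 1 and saline WD replicate 2 was left out (adjusted p 0.0551 to 0.0569). The difference of Btg2 did not pass when any 1 of ND replicates 1 and 2, WD replicate 4, saline ND replicate 2 and saline WD replicates 2 and 3 was left out (adjusted p 0.0578 to 0.0767). The difference of Tfrc did not pass without saline WD replicate 1, at 0.80 (adjusted p = 0.0525).

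Among hepatocyte enzymes and secreted proteins it was positive for Hsd3b5 at 6.73, Mup7 at 5.96, Mup16 at 5.66, Mup17 at 5.18, Mup11 at 5.12, Mup12 at 5.10, Serpina1e at 4.91, Nnmt at 4.52, Cyp2c69 at 3.69, Cyp2c23 at 1.74, Cyp1a2 at 1.86, Cps1 at 1.84, Alb at 0.91, Plg at 0.82, Sds at 3.71, Gnmt at 1.87, Sult2a7 at 1.97 and Sult1d1 at 1.86. The remaining positive genes were Per1 at 1.76, Gm3839 at 2.11, Adgrf1 at 2.16, Enho at 2.06 and 1110002J07Rik at 1.83. The remaining negative genes were Ly6d at -4.49, Gprc5b at -4.33, Sytl5 at -4.20, C2cd4c at -4.34, Chrnb1 at -2.94, Wnk2 at -2.91, Tmem171 at -3.08, Rnf43 at -2.04 and Tbx3 at -2.15. The difference of Adgrf1 did not pass when any 1 of ND replicates 2 and 3, WD replicates 3 and 4, saline ND replicates 1 and 3 and saline WD replicates 1 and 3 was left out (adjusted p 0.0529 to 0.0733). The difference of Enho did not pass without saline ND replicate 1, at 1.72 (adjusted p = 0.0518).

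Against the 5 mg livers the diet effect differed by -2.68 for Pdk4 and 2.70 for Rgs1, and in these genes neither the ND nor the WD livers overlapped between the doses.

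In 8 genes 1 of the 4 WD livers lay far from the other 3, measured by its gap to the nearest liver over the range of the group. WD replicate 1 read 1200.1 for Tm7sf2, 502.8 for Ly6d and 13.4 for Chrnb1. WD replicate 2 read 6105.4 for Scarb1 and 107.1 for Mmp9. WD replicate 3 read 2291.9 for Nr1i3. WD replicate 4 read 4421.0 for Clec4f and 46.0 for Ccl2, all in normalised counts. Chance alone marks about 1 in 20 such groups, and 202 genes were looked at.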

How the results depend on the processing

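The count of 1912 genes passing stayed within 1.5 times under the alternatives named here except where a value follows. Fitting only the 7 livers, with fewer livers to estimate the spread, gave 857 genes, 620 higher and 237 lower. Library totals with a pseudocount of 1 gave 472 lower genes. Leaving out 1 liver gave 911 to 2180 genes, 657 to 1256 higher and 254 to 969 lower, with the lowest of each without ND replicate 2, and 453 lower without WD replicate 1. The difference from saline passed for 3044 genes, 2239 to 3638 when 1 liver was left out, but 5452 with CPM of the library total and a pseudocount of 0.5, 4961 of them negative, and 5333 with library totals and a pseudocount of 1, 4832 of them negative, against 1659 negative with the size factors. The difference from 5 mg passed for 3 genes, 1 without trend and robust fitting, 5 with only the livers compared, 1 with the replicate block, and 1 to 7 when 1 liver was left out. The saline diet effect gave 6513 to 7989 genes when 1 liver was left out.

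Of the 155 named genes that passed, none reversed, 106 passed without ND replicate 2, 117 with only the 7 livers, and 126 to 154 under each other alternative that kept their number. At a mean of at least 50 normalised counts 139 of them were tested and all 139 passed. A sign change occurred only among genes past the threshold in neither setting, 35 times over 20 genes. Of the 88 genes whose difference from saline passed, 79 passed with library totals, 79 with voom on the raw counts and none reversed.

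The replicate numbers are shared by the groups, but they give no pairing: same-numbered livers had correlations of their deviations of 0.176, 0.065 and 0.011. With a replicate block 1754 genes passed, 1147 higher and 607 lower, and 133 of the 155 named genes.

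Precision was limited by 3 and 4 livers per diet, and counts below about 10 carry large counting error. The choice of library totals and of the livers left out of the saline and 5 mg groups was made after seeing the data.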
